A study of Mus musculus with 2 samples.

Results

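The cells described here were pancreatic β cells of mice on a high-fat diet (HFD) in which at least 1 transcript of Aldh1a3 was captured. They were chosen from the HFD single-cell RNA library by a fixed set of limits on each barcode: at least 500 genes, at most 20% of unique molecular identifiers (UMIs, the tags that count captured transcripts) from mitochondrial genes, 8000 to 20000 UMIs, at least 40% of UMIs from Ins1 and Ins2, and less than 1% from each of Gcg, Sst, Ppy and Pyy. Of the 8951 HFD barcodes, 3913 met these limits. Aldh1a3 UMIs were found in 486 of them, and the other 3427 served as the comparison. Since the cells were selected on Aldh1a3, insulin, the other hormones and depth, the values of those measures are given as description only.

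Aldh1a3 encodes a retinaldehyde dehydrogenase, one of the enzymes that oxidise retinaldehyde to retinoic acid. In islets it is best known as a marker of β cells that lose mature features under metabolic stress, and it is scarce in β cells of healthy mice. The gene lies on chromosome 7 from 66390890 to 66427517, on the minus strand (GRCm38, the build called mm10, GENCODE annotation). Mature β cells are recognised by high insulin, by transcription factors such as Mafa, Pdx1, Nkx6-1 and Neurod1, and by the machinery that senses glucose and releases insulin, including the glucose transporter Slc2a2.

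The islets came from male C57/B6 mice aged 16 weeks. HFD mice received a feed in which fat supplied 60% of the kcal. They were 6 weeks old when it began and stayed on it for 10 weeks. The wild-type (WT) mice ate standard chow according to the study's methods, and their labels name no diet. Each library pooled the islets of 4 animals, so 1 library stood for each group and single mice could not be told apart. No test was therefore possible. All intervals are 95% intervals that cover counting error only, and PCR and the shared origin of cells add error that they do not hold. Only 9 barcodes occurred in both libraries, and none of them was among the 486 cells.

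Markers of β cells that had no part in the choice of cells were checked in the 486 cells. Iapp, which encodes the amyloid peptide co-secreted with insulin, was detected in every cell. The transcription factor genes Nkx6-1 and Mafa were detected in 73.5% and 72.2% of cells, and Slc2a2 in 62.3%. The cells with Aldh1a3 held 6580717 UMIs in all and those without held 43735775.

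Most of the 486 cells held a single Aldh1a3 transcript. In 340 cells 1 UMI was counted, in 100 cells 2, in 25 cells 3, in 14 cells 4, in 3 cells 5 and in 4 cells 6, which made 710 UMIs. Cells just inside the limit of 1 UMI had a median of 13378.5 UMIs and 2127 genes and a mean insulin share of 56.9%. Cells just outside it, with none, had a median of 12198 UMIs and 2071 genes and a mean insulin share of 57.5%. The 46 cells with 3 or more Aldh1a3 UMIs held 170 of the 710.

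The share of cells with Aldh1a3 followed depth. From the lowest to the highest band of 2000 UMIs the share was 9.04% (87 of 962 cells), 11.3%, 13.0%, 13.4%, 15.6% and 17.5% (61 of 348 cells). The level over all gated cells stayed between 12.4 and 15.8 CPM (counts scaled to 1000000 UMIs) in the 6 bands, with 14.1 CPM overall (13.1 to 15.2), and showed no order with depth there. Outside this range it did differ, at 6.93 CPM (5.11 to 9.19) in β cells of 4000 to 8000 UMIs and 19.9 CPM (18.3 to 21.7) in those of 20000 to 40000 UMIs. The variance of the Aldh1a3 count per cell was 1.59 to 1.99 times its mean within a band, so the UMIs were less evenly spread over cells than a constant level would give. When every cell was thinned to 8000 UMIs, 346 of 3913 cells (8.84%, exact Clopper-Pearson interval 7.97 to 9.78%) still held Aldh1a3.

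In the WT library the same limits kept 314 cells, and 2 of them held 1 Aldh1a3 UMI each (0.637%, exact Clopper-Pearson interval 0.0772 to 2.28%). The WT level was 0.397 CPM (exact Poisson interval 0.0481 to 1.44). Weighted to the depth of the HFD cells the WT share was 0.684%. Because each diet had 1 library, diet and preparation cannot be told apart in this difference. The 314 cells were the shallow part of 1732 WT β cells of 8000 UMIs or more. They had a median mitochondrial share of 5.34%, against 3.33% in HFD cells without Aldh1a3. WT levels set beside HFD below are of the 314 cells unless stated, and need not hold for deeper WT cells.

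**Figure D1:**
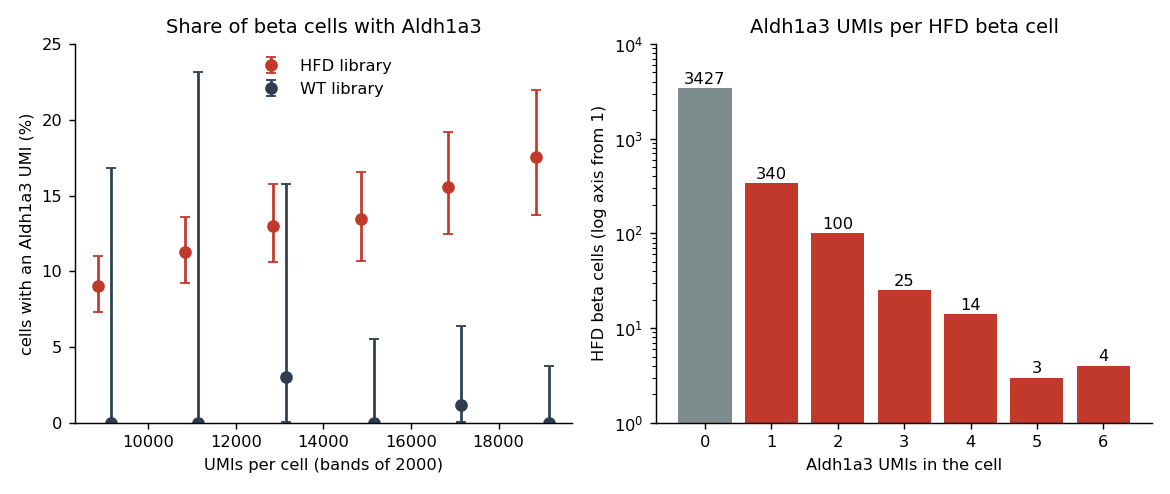
Left, the share of gated β cells with at least 1 Aldh1a3 UMI (y axis, percent) in 6 bands of UMIs per cell (x axis) for HFD (red) and WT (dark), with exact 95% binomial intervals that cover counting error only. Right, the number of HFD β cells (log axis) by their count of Aldh1a3 UMIs, where 3427 cells held none and 340 held 1.

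Free RNA in droplets puts a few transcripts of abundant genes into cells that do not make them, and the other cells of the HFD library give its level. In 209 alpha-like HFD cells (Gcg at 2% of UMIs or more, insulin below 10%, median 4350 UMIs) no Aldh1a3 UMI was found among 1023279 UMIs, and a count of 0 allows up to 2.93 CPM. Insulin made up 1.09% of UMIs in these cells against 57.5% in the gated β cells, so at the Aldh1a3 to insulin ratio of the β cells 0.275 Aldh1a3 UMIs would have come with it. No UMI was found in 118 delta-like cells (median 2830.5 UMIs) or 51 macrophage-like cells (median 2050 UMIs), and 1 of 154 endothelial-like cells (median 3242 UMIs) held 1 UMI. Thinned to 2000 UMIs, 2.71% of the gated β cells held Aldh1a3, and none of 205 alpha-like, 109 delta-like, 111 endothelial-like and 29 macrophage-like cells did. These counts allow shares up to 1.46%, 2.75%, 2.70% and 10.3%, so the β cells lay above the limit in the alpha-like cells and only just above or below it in the other, fewer cells. In the WT library 2 of 50 delta-like cells held 3 Aldh1a3 UMIs (6.63 CPM, 1.37 to 19.4). There 1 of 60 alpha-like cells held 1 (1.29 CPM, 0.0326 to 7.17), and none of 165 endothelial-like and 41 macrophage-like cells held any. The gated WT β cells had 0.397 CPM (0.0481 to 1.44), and these intervals overlapped.

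Cells with Aldh1a3 differed little from the others in overall content. Their mean insulin share was 56.6% ± 3.77 (SD over cells) against 57.6% in cells without Aldh1a3 at the same depths, and it was lower in 6 of 6 bands. The difference of 0.971 percentage points was small beside the SD of 4.03 among cells without. Ins1 made up 27.5% of insulin UMIs in cells with Aldh1a3 and 27.9% in the others. Genes per cell averaged 2202 with and 2238 without Aldh1a3, and the mitochondrial share averaged 3.55% and 3.59%. In the 46 cells with 3 or more Aldh1a3 UMIs the insulin share averaged 55.2%.

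Gene levels were then compared at matched depth: the share of UMIs of each gene in cells with Aldh1a3 was divided by that in cells without, pooled over the 6 bands as a Mantel-Haenszel ratio. Among 5476 genes at 10 CPM or more, 104 (1.9%) were at least 25% higher in cells with Aldh1a3 and 333 (6.08%) were at least 20% lower (a ratio of 0.8 or less). The median log2 ratio of all these genes was -0.03. The 12 highest and 12 lowest ratios among genes that kept their direction in at least 5 of 6 bands and whose interval left out 1 are described next.

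The highest ratio was that of Serpina7. This gene, which encodes thyroxine-binding globulin, had 19.1 CPM (exact Poisson interval 15.9 to 22.8) in cells with Aldh1a3 and 9.51 CPM in cells without, a ratio of 2.02 (1.65 to 2.46). It was detected in 18.5% of cells with Aldh1a3 and 9.36% of the others. By band its level ran from 12.1 to 26.2 CPM with and from 6.24 to 13.2 CPM without Aldh1a3, so the 2 ranges overlapped although each band had the higher level with Aldh1a3. Spp1, the secreted phosphoprotein osteopontin, had 48.8 and 26.8 CPM (ratio 1.83, 1.61 to 2.06).

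Gc and Dapl1 gave the best counted differences. Gc, the vitamin D binding protein, had 121 CPM (113 to 130) with and 69.6 CPM without Aldh1a3, a ratio of 1.74 (1.61 to 1.88), and was detected in 73.9% and 52.2% of cells. Its lowest band with Aldh1a3, at 93.1 CPM, lay above its highest band without, at 74.3 CPM. Dapl1 had 486 CPM (470 to 504) and 294 CPM, a ratio of 1.66 (1.60 to 1.72), and its bands at 437 to 566 CPM and 219 to 327 CPM did not overlap either. Both genes belong to a list chosen for an earlier difference between the libraries, and in the gated WT cells they had 17.4 CPM (Gc) and 53.5 CPM (Dapl1). In these 2 genes, chosen for differing between the libraries, cells with Aldh1a3 lay farther from the WT level than the other HFD cells did.

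Cd81, a tetraspanin of the plasma membrane that is known from immature β cells, had 21.0 CPM with and 12.4 CPM without Aldh1a3 (ratio 1.69, 1.40 to 2.04). Here the WT cells had more than either HFD group, at 48.0 CPM. Gpx3, a secreted glutathione peroxidase, had 38.0 and 22.6 CPM (ratio 1.68, 1.47 to 1.94). The remaining higher genes were Krtap17-1 and Trim9 (ratio 1.59 each), the hyaluronan receptor Cd44 (1.55), Rasgrf2 (1.54), the kinase gene Mapk9 (1.53) and B2m, the light chain of MHC class I (1.46). For 9 of these 12 genes the level in the gated WT cells lay below that of HFD cells without Aldh1a3. For 3 (Cd81, Mapk9 and B2m) it lay above. The share over all genes compared was not counted, so these counts do not set the genes apart. In WT cells without Aldh1a3 and with no maximum of UMIs, B2m had 16.1 CPM and Mapk9 10.8 CPM. The HFD cells without Aldh1a3 had 20.2 and 10.5 CPM.

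The lower genes included 3 with a known role in transcription (Ikzf4, Cebpd and Egr1), a coactivator (Ppargc1a) and an enzyme subunit of the respiratory chain. The last, Cox6a2, a subunit of cytochrome c oxidase otherwise typical of muscle, had 59.7 CPM (54.0 to 65.9) with and 118 CPM without Aldh1a3, a ratio of 0.503 (0.454 to 0.557). It was detected in 42.2% of cells with and 67.1% of cells without Aldh1a3, and its highest band with, at 72.9 CPM, lay below its lowest band without, at 113 CPM. Cebpd, a transcription factor of acute responses, had 13.5 and 31.0 CPM (ratio 0.437, 0.353 to 0.542), and Ikzf4, a zinc finger factor, 5.47 and 12.9 CPM (0.424, 0.302 to 0.594). Ppargc1a, the coactivator that drives mitochondrial biogenesis, had 10.8 and 20.5 CPM (0.525, 0.412 to 0.669).

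The immediate early gene Egr1 had 56.1 CPM with and 111 CPM without Aldh1a3 (ratio 0.509, 0.458 to 0.565). Upp1 had a ratio of 0.447, T2 0.448, Tmsb15b2 0.468 (a member of a family of close copies among which reads may be split), Crybb3 0.515, Rasd1 0.522 and Adam32 0.528. Of the 12 lower genes, 9 had a level in the gated WT cells above that of HFD cells without Aldh1a3. The share over all genes compared was not counted here either. Ppargc1a was among the 9, at 21.3 CPM. In WT cells without Aldh1a3 and with no maximum of UMIs it had 6.43 CPM. One of the 12, the β-globin gene Hbb-bs, rested on few cells. Its 1472 UMIs lay in 58 gated cells, and 1 cell without Aldh1a3 held 524 of them, so its ratio of 0.0238 describes those cells.

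**Figure D2:**
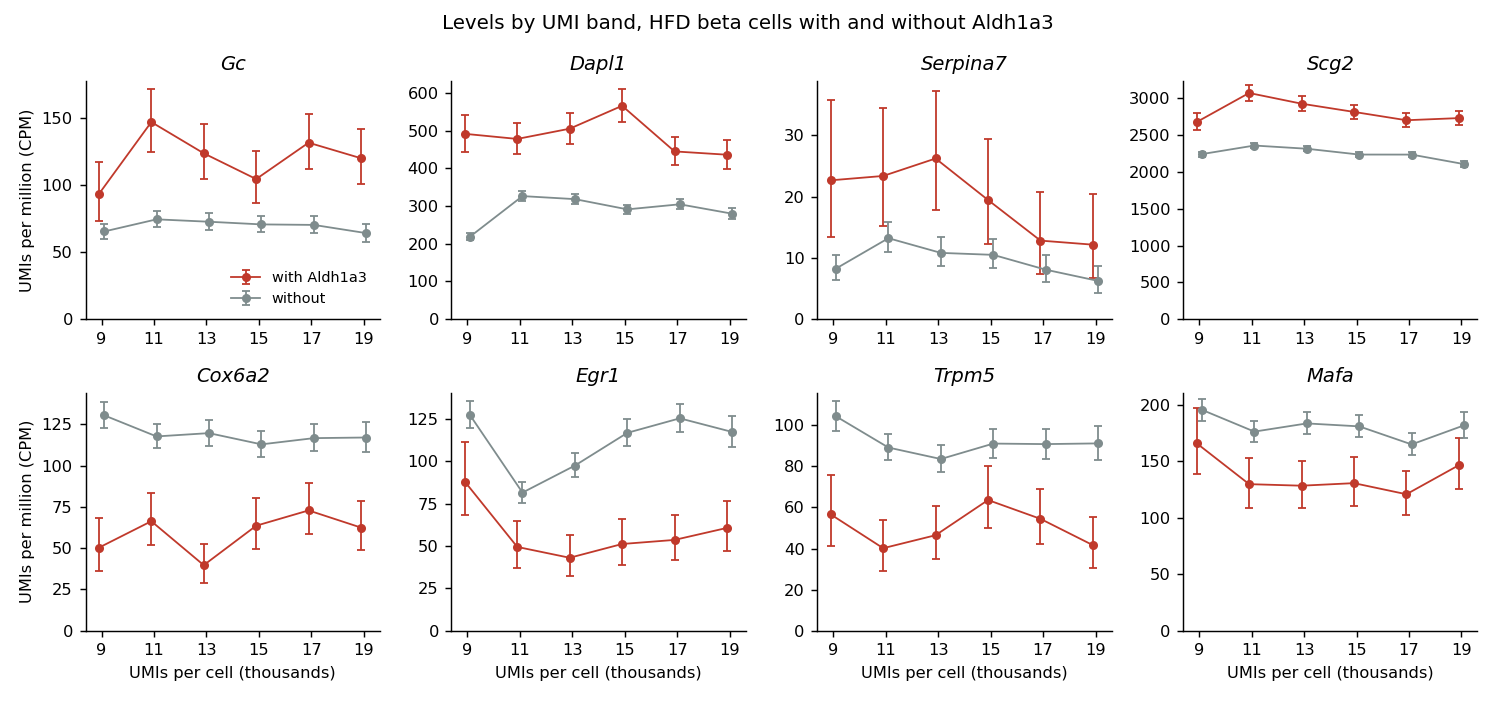
CPM (y axis, from 0) of 8 genes in HFD β cells with Aldh1a3 (red) and without (grey), by band of UMIs per cell (x axis, band centre in units of 1000 UMIs), with exact 95% Poisson intervals. Gc, Dapl1 and Scg2 lay higher with Aldh1a3 in every band without overlap of the 2 ranges, and Cox6a2 and Trpm5 lay lower.

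HFD β cells with more than 20000 and up to 40000 UMIs met the other limits but had no part in choosing these genes, so they allow the same comparison in other cells of the same library. In these deeper cells 333 of 1086 held Aldh1a3. All 12 higher genes had ratios above 1 and all 12 lower genes had ratios below 1, and the interval left out 1 for 7 and 9 of them. Most ratios lay nearer to 1 than before. Gc was at 1.18 (1.09 to 1.28), Dapl1 at 1.24 (1.20 to 1.29), Serpina7 at 1.48 (1.19 to 1.84), Egr1 at 0.727 (0.659 to 0.803) and Cox6a2 at 0.608 (0.551 to 0.670). Spp1 kept most of its difference at 1.66 (1.46 to 1.87), and Hbb-bs was at 0.98. Of the 104 higher genes, 75 (72.1%) lay above 1 in the deeper cells, and of the 333 lower genes, 234 (70.3%) lay below 1. Among all genes compared, 49.7% lay above 1 there. Past the same limits in the same direction were 13 of the 104 and 44 of the 333, against 1.37% and 2.78% of all genes compared.

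**Figure D3:**
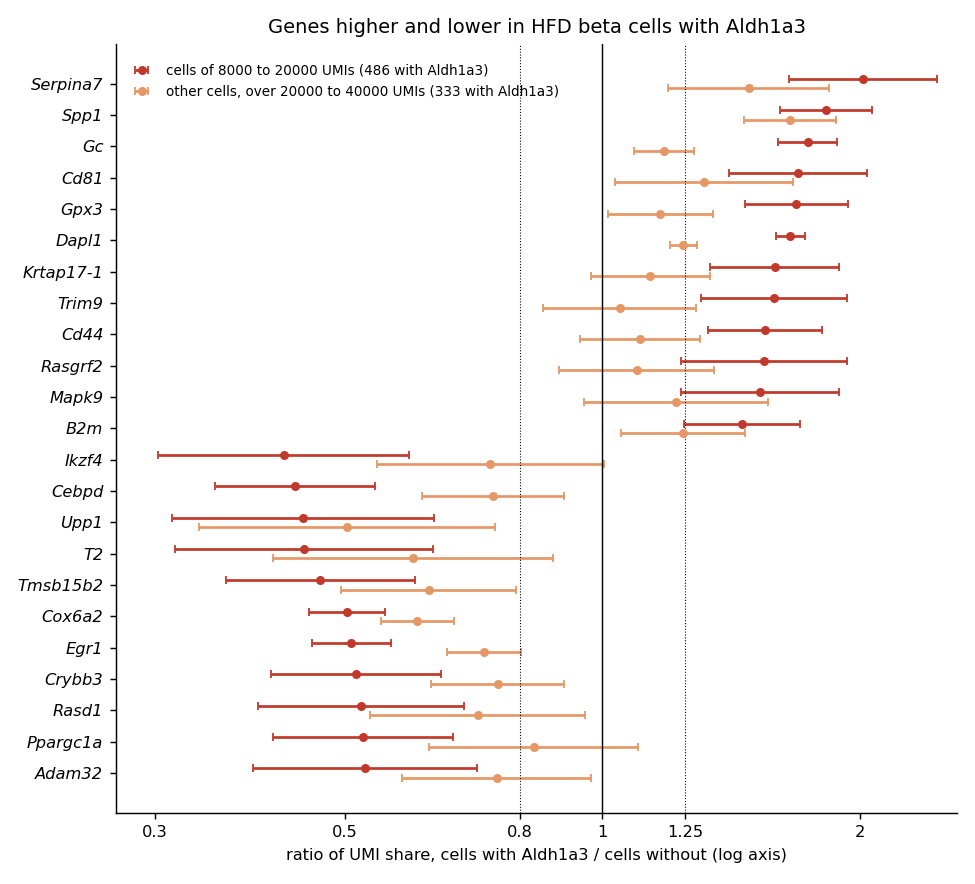
Ratio of UMI share in HFD β cells with Aldh1a3 to that in cells without (x axis, log), for 23 of the 24 genes chosen by the rule (Hbb-bs at 0.0238 is not drawn). Red points are the 486 chosen cells and orange points the 333 deeper cells, bars are 95% counting intervals, and dotted lines mark 25% higher and 20% lower. Every orange point lay on the same side of 1 as its red point, and most lay nearer to 1.

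Genes of β cell identity leaned lower. Of 16 transcription factor genes on this list, 13 were at 10 CPM or more, with 10 ratios below 1 and 3 above and a median log2 ratio of -0.17, against -0.03 over all genes. The ratio was at or below 0.8 for 3 of them. Mafa, which drives insulin transcription in mature β cells, had 135 CPM (127 to 145) with and 180 CPM without Aldh1a3 (ratio 0.754, 0.703 to 0.808), and 288 CPM in WT. Neurod1, a factor of endocrine differentiation, had 53.9 and 72.0 CPM (0.748, 0.670 to 0.836), and Hnf4a 10.8 and 14.6 CPM (0.740, 0.579 to 0.947). Pdx1 (0.888), Nkx6-1 (0.902) and Isl1 (0.836) were nearer to 1. In the deeper cells the median of the list was -0.01, with Mafa at 0.896 (0.834 to 0.961), Neurod1 at 0.88 (0.79 to 0.98) and Hnf4a at 1.05. Over genes of at least 10 UMIs the median was -0.19 in the main comparison, 0.06 in the deeper cells and 0.02 at 4000 to 8000 UMIs.

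Maturity genes leaned slightly lower. Of 17 genes of glucose sensing and secretion at 10 CPM or more, 14 ratios were below 1 and 3 above, with a median log2 ratio of -0.10. Below 0.8 were Trpm5, a cation channel that aids depolarisation (0.553, 0.494 to 0.619), Slc2a2 (0.725, 0.665 to 0.789), the incretin receptor Gipr (0.734, 0.588 to 0.917) and Sytl4, a granule docking protein (0.747, 0.668 to 0.836). Trpm5 had 50.3 CPM with and 91.0 CPM without Aldh1a3, and Slc2a2 89.4 and 123 CPM. In the deeper cells Trpm5 (0.653) and Slc2a2 (0.788) lay below 0.8 again, while Gipr was at 1.14. The potassium channel subunit gene Abcc8 (0.997) and the maturity peptide Ucn3 (0.971) were close to 1. On the higher side were Iapp, with 71394 CPM with and 61994 CPM without Aldh1a3 (1.15, 1.15 to 1.16), and Tmem27, the collectrin of β cells (1.21, 1.15 to 1.28).

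Hormone processing and granule genes leaned higher. All 16 were at 10 CPM or more, 15 had ratios above 1, and the median log2 ratio was 0.18. Scg2, a granin of secretory granules, had 2824 CPM with and 2248 CPM without Aldh1a3 (1.26, 1.24 to 1.28), with bands of 2677 to 3072 CPM and 2106 to 2358 CPM. Nucb2, the precursor of nesfatin, had 264 and 209 CPM (1.26, 1.20 to 1.33). These were the 2 genes of the list at least 25% higher. Pam, which amidates peptides (1.19), Scg5 (1.17) and Chgb (1.15) were also above 1, whereas the convertase genes Pcsk1 (1.04) and Pcsk2 (1.02) were nearly level. The deeper cells had a median of 0.10.

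Endoplasmic reticulum (ER) folding and degradation genes showed a small shift in the same direction. Of 24 genes, 19 had ratios above 1 and none was 25% higher or 20% lower, with a median log2 ratio of 0.12. Fkbp11 (1.22, 1.16 to 1.29), Sdf2l1 (1.20, 1.15 to 1.26), Dnajc3 (1.17) and Manf (1.15) were highest among the well counted genes, and the chaperone gene Hspa5 had 999 CPM with and 904 CPM without Aldh1a3 (1.11, 1.08 to 1.13). Xbp1, the transcription factor of the unfolded protein response, was at 0.921. Ribosomal protein genes behaved likewise, with 15 of 16 ratios above 1, a median of 0.11, and 4.40% of UMIs from all such genes with Aldh1a3 against 4.17% without.

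The integrated stress response showed no common direction. Of 13 genes at 10 CPM or more, 6 ratios were above 1 and 7 below, with a median of -0.01. Its main transcription factor gene Atf4 was at 1.04 and the synthetase gene Asns at 0.993. Ddit3, the proapoptotic factor CHOP, had 155 and 167 CPM (0.929, 0.870 to 0.992), and Trib3 26.0 and 24.4 CPM (1.07, with an interval that held 1). The 2 genes at least 20% lower were Atf3 (0.665, 0.590 to 0.749) and Atf5 (0.721, 0.653 to 0.798). Cells with a UMI of Ddit3 or Trib3 made up 83.3% of cells with Aldh1a3 and 84.8% of the others at the same depths.

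AP-1 and immediate early genes, which are switched on within minutes of a stimulus and also by tissue dissociation, had the lowest median of the lists with more than 2 measured genes. All 14 at 10 CPM or more had ratios below 1, 9 of them at or below 0.8, and the median log2 ratio was -0.41. Fos had 100 CPM (92.9 to 108) with and 181 CPM without Aldh1a3 (0.555, 0.512 to 0.601), and its bands of 76.6 to 156 CPM and 158 to 220 CPM did not overlap. Junb (0.612), Nr4a1 (0.603), Ier2 (0.702) and Btg2 (0.757) were also lower, and the abundant Jund was at 0.869. WT cells stood higher still, with 801 CPM for Fos and 340 CPM for Egr1. In the deeper cells the median was -0.18, with Fos at 0.873. Since both HFD groups came from the same dissociation and library, the part that dissociation had in this pattern was not tested.

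The sequence before the Fos start is shown because Fos had the lowest ratio of the AP-1 subunits at 10 CPM or more and its promoter is a textbook target of cAMP signalling. The 120 bases ahead of the RefSeq start (GRCm38.p6, chr12:85473770-85473889, plus strand) hold 1 copy of the core of the cAMP response element, TGACGT, given here in capitals, which begins 66 bases before the start.
Fos: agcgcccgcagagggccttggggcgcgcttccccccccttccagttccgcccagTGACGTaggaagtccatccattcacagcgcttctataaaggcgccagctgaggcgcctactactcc
On either strand within 250 bases before the start, TGACGT occurred in 2 of the 11 immediate early genes with a window (Fos and Btg2) and in 6.56% of 27025 promoters. The CArG box of serum response was found in none of the 11 and in 1.40% of all promoters in these windows. Bases farther upstream were not searched for either sequence. These matches are a description of letters and not of binding.

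**Figure D4:**
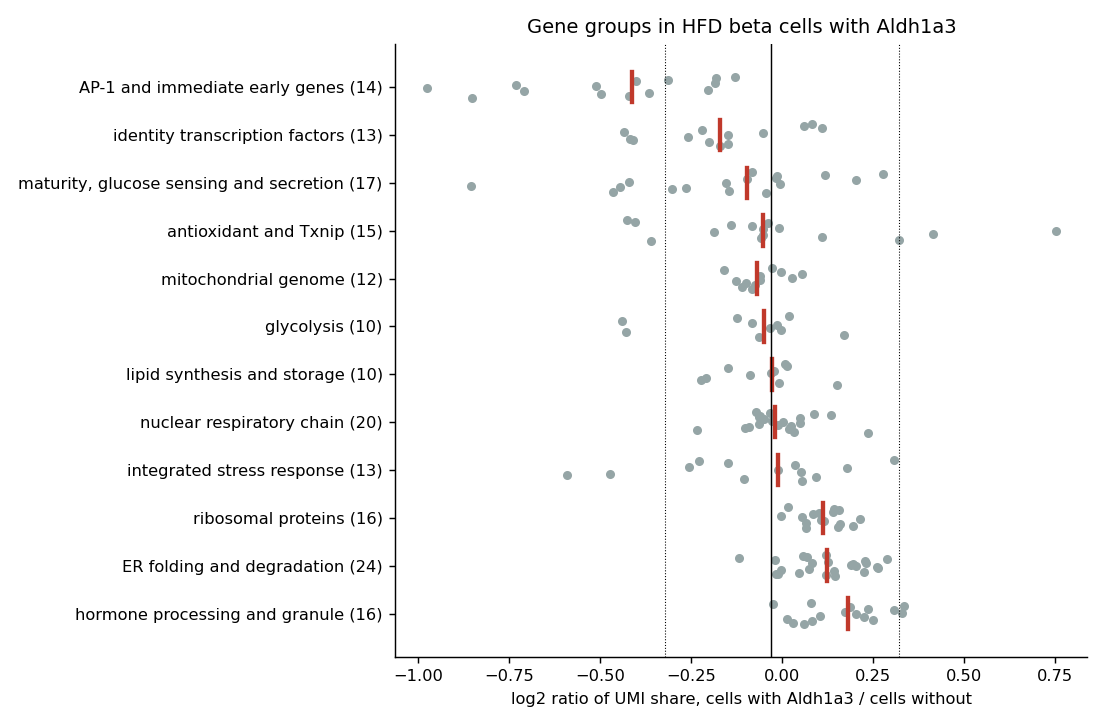
Log2 ratio of UMI share in HFD β cells with Aldh1a3 to cells without (x axis) for genes of 12 lists (y axis, number of genes at 10 CPM or more in brackets). Grey points are genes, red bars list medians, the solid line the median of all 5476 genes (-0.03) and dotted lines 25% higher and 20% lower. Immediate early genes (-0.41) and granule genes (0.18) had the lowest and highest medians drawn.

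Retinoid genes other than Aldh1a3 were sparse. Of 24 genes on the list of retinoid synthesis, binding and reception, 13 had 10 UMIs or more and only Ttr, the carrier of retinol binding protein and thyroxine, was at 10 CPM or more. Ttr had 1863 CPM with and 1484 CPM without Aldh1a3 (1.26, 1.23 to 1.28), 1.23 in the deeper cells and 611 CPM in WT. Retinol binding protein Rbp4 had 2.89 and 9.63 CPM (0.301, 0.190 to 0.477), and it is also a gene of delta cells. The receptors Rarg (1.43), Rxra (1.17) and Rara (0.673) all had intervals that held 1.

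Genes of immature or dedifferentiated β cells were mostly near the limit of detection. Of 20 listed, 13 had 10 UMIs or more with a median log2 ratio of -0.08. That sign did not hold: the median was 0.36 over genes of at least 50 UMIs, 0.44 without the highest doublet scores, 0.40 in the deeper cells, 0.38 at 4000 to 8000 UMIs and 1.16 in cells with at least 2 Aldh1a3 UMIs. The 2 genes at 10 CPM or more were Serpina7 and Cd81 (above). Neurog3, the factor of endocrine progenitors, had 6 UMIs in 6 of 486 cells with Aldh1a3 and 10 in 10 of 3427 without (3.85, 1.37 to 10.8). It was at 1.76 (0.375 to 8.26) in the deeper cells, and 4 of the 314 gated WT cells held it. Cck was found in 6 cells with Aldh1a3 (1.23%, exact Clopper-Pearson interval 0.454 to 2.67%) and 19 without (0.554%, 0.334 to 0.864%). At the same depths the share without was 0.605%. Cck had 13 and 36 UMIs, and 1 cell held 6 of the 13. Gast was found in 13 cells with (2.67%, 1.43 to 4.53%) and 51 without (1.49%, 1.11 to 1.95%). The intervals overlapped for both genes. Nnat, an imprinted gene of β cell secretion, was lower (0.44, 0.297 to 0.652). Ldha and Npy had intervals that held 1.

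Antioxidant genes split. Besides Gpx3, the peroxiredoxin gene Prdx4 (1.33, 1.14 to 1.56) was at least 25% higher, and the thioredoxin gene Txn1 just reached that limit (85.7 and 68.7 CPM, ratio interval 1.14 to 1.37), but neither differed in the deeper cells (0.963 and 0.994). The metallothionein genes were lower, Mt1 with 1016 and 1348 CPM (0.756, 0.737 to 0.775) and Mt2 with 136 and 183 CPM (0.744, 0.695 to 0.798), as was Txnip (0.779, 0.706 to 0.860), which binds thioredoxin and rises with glucose. The list of 15 measured genes had a median of -0.05.

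The lists of energy genes had medians near that of all genes, although Cox6a2 and Ppargc1a (above), which are on none of them, were lower. Genes of the nuclear respiratory chain (20) had a median of -0.02, those of the mitochondrial genome (12 at 10 CPM or more) a median of -0.07, and none of either was past the limits. Of 10 glycolysis genes, Eno1 (0.738) and Pfkp (0.743) were at least 20% lower, with a median of -0.05. None of 10 lipid synthesis and storage genes was past either limit, with a median of -0.03. Of 5 genes of MHC class I and interferon, B2m was higher and the interferon factor gene Irf1 lower (0.617, 0.507 to 0.750), while H2-K1 (0.998) and H2-D1 (1.10) were close to 1. The 12 genes chosen earlier for differing by library had a median of 0.07, with 3 higher and 2 lower, C2cd4a (0.672) and C2cd4b (0.722).

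Cycling cells were few. At least 2 of 8 mitotic genes were present in 3 of 486 cells with Aldh1a3 (0.617%, exact Clopper-Pearson interval 0.127 to 1.79%) and in 2 of 3427 without (0.0584%, 0.00707 to 0.211%). Ube2c had 37 UMIs with Aldh1a3, of which 1 cell held 33, and Mki67 had 12 in 8 cells. Of 16 cycling genes, 15 had 10 UMIs or more, and their median log2 ratio of 1.39 was the highest of the 17 functional lists at that floor. It rested on few UMIs: it was 0.48 without the cell of most UMIs for each gene, 0.13 over genes of at least 50 UMIs, 0.09 in the deeper cells and -0.27 at 4000 to 8000 UMIs. The 2 cycling genes at 10 CPM or more were the D-type cyclins Ccnd1 (1.10) and Ccnd2 (0.872).

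**Figure D5:**
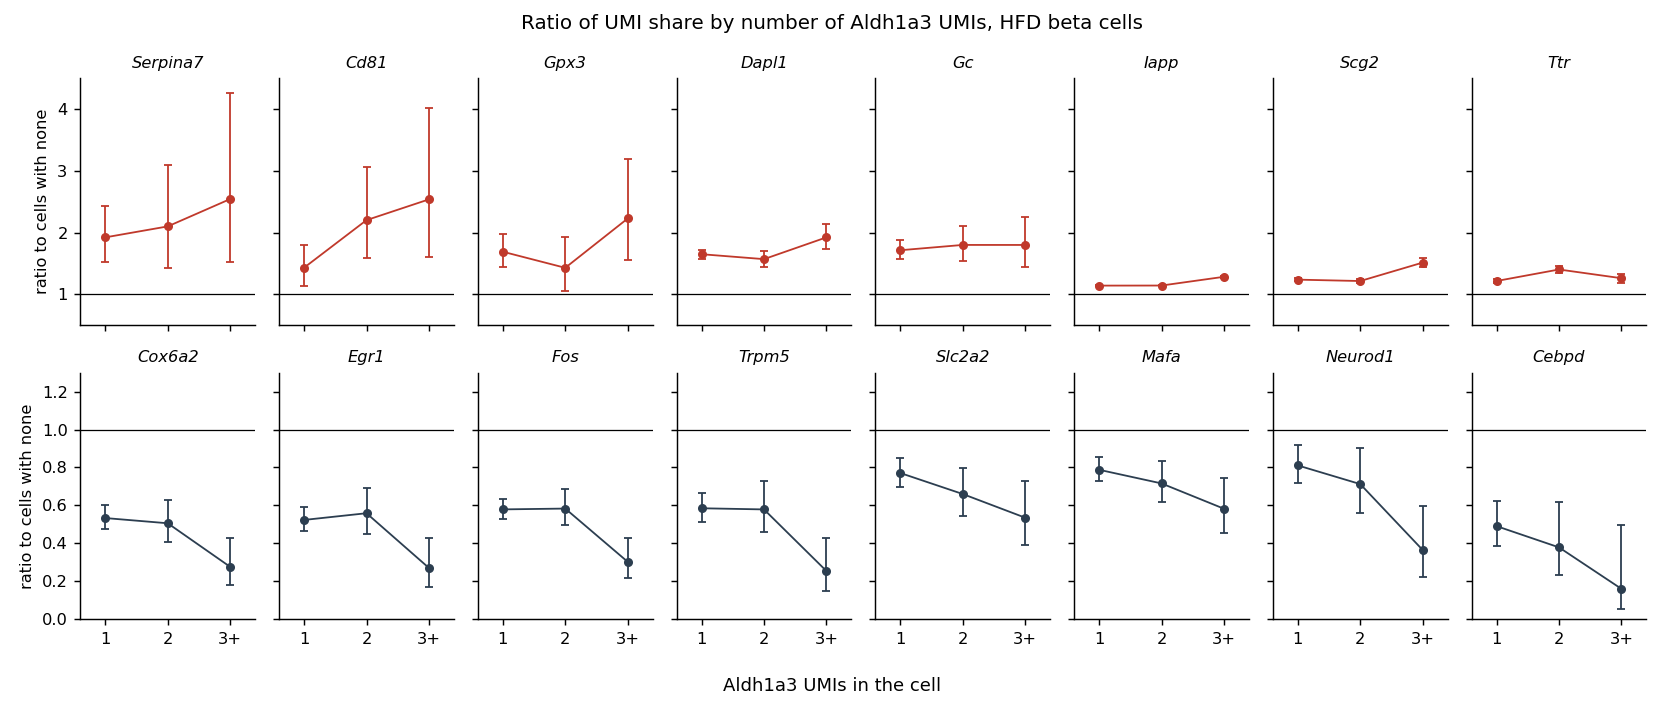
Ratio of UMI share to cells with no Aldh1a3 (y axis) in cells with 1, 2 or at least 3 Aldh1a3 UMIs (x axis; 340, 100 and 46 cells) for 8 higher genes (red) and 8 lower genes (dark), chosen after their values were seen. Bars are 95% counting intervals. Neurod1 went from 0.811 to 0.712 and 0.365, and Cd81 from 1.43 to 2.20 and 2.54.

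Of the 12 higher and 12 lower genes, 10 and 10 had a ratio farther from 1 with at least 3 Aldh1a3 UMIs than with 1. At each step 5 and 5 moved away from 1. These genes had been chosen for extreme ratios over these same cells, and the share over all genes compared was not counted. Hbb-bs, which rested on few cells, was among the 10 lower genes. The class with at least 3 UMIs held 46 cells. Cd44, Rasgrf2, Upp1 and Crybb3 were nearer to 1 with at least 3 UMIs, Rasgrf2 at 1.54, 1.62 and 1.37 and Upp1 at 0.406, 0.522 and 0.583. The other genes given here were chosen after their values were seen. With 1, 2 and at least 3 UMIs, Cox6a2 was at 0.533, 0.506 and 0.276, Mafa at 0.788, 0.716 and 0.582, and Slc2a2 at 0.771, 0.660 and 0.535. Cebpd was at 0.491, 0.379 and 0.160, and Trpm5 at 0.585, 0.579 and 0.254. On the higher side Serpina7 was at 1.92, 2.10 and 2.54. Gc was nearly the same in all 3 classes, at 1.71, 1.80 and 1.80. The intervals of neighbouring classes overlapped for most of these genes, and the order was not tested.

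Markers of other cell types differed in both directions. Endothelial markers summed to 3.65 CPM with and 15.5 CPM without Aldh1a3, with Emcn at 0, fibroblast and stellate markers to 0.304 and 2.73 CPM, with 7 of 8 at 0, and erythroid markers to 0.912 and 36.8 CPM, with Hba-a1 and Alas2 at 0. Delta markers other than Sst summed to 3.04 and 10.0 CPM. Acinar markers, which are abundant in free RNA of pancreas, summed to 675 and 629 CPM, and ductal markers to 903 and 942 CPM, of which Spp1 alone was at least 25% higher. Macrophage (52.6 and 57.0 CPM), gamma (19.8 and 19.9 CPM), T and B cell (5.47 and 6.48 CPM) and Schwann (2.58 and 1.36 CPM, ratio 1.90, 1.11 to 3.28) markers differed by less than 5 CPM. Alpha markers without Gcg summed to 1865 and 1486 CPM, nearly all of it Ttr. Of the 641 HFD barcodes with the highest doublet scores, 43 were cells with Aldh1a3 and 285 cells without. The part of any other cell type in the results was not tested.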

How the data were processed

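Single-cell RNA was measured in 1 WT and 1 HFD islet library made with 10x Genomics 3-prime v3 chemistry. The authors deposited UMI counts for each gene in each barcode, unnormalised, from Cell Ranger (v3.0.2) on the mm10 genome. Cells, bands and gene lists were chosen with earlier results of these data known. UMI sums over cells were divided by total UMIs (CPM). Ratios were Mantel-Haenszel rate ratios over 6 bands of 2000 UMIs with Greenland-Robins intervals. They were run on simulated Poisson counts with known changes. The intervals assume such counts, so that run could not show how they hold for real cells, whose counts spread more. CPM carry exact Poisson and shares exact Clopper-Pearson intervals, at 95%. Genes needed 10 CPM over all gated cells, without Aldh1a3 and the hormone genes of the rule. List medians used the same floor, or 10 UMIs where stated, as for the immature and cycling lists. Named genes were the 12 highest and 12 lowest ratios with the same direction in at least 5 bands and an interval without 1, and genes of 17 functional and 11 marker lists. Levels without Aldh1a3 and in WT were weighted to the bands of the cells with Aldh1a3. A count of 0 was given the limit of 3 counts. Endothelial-like and macrophage-like cells held at least 4 markers of their list, fewer than 2 of the other and under 20% insulin. Doublets were not removed in the main comparison, because Scrublet (scanpy v1.11.5) called 0 HFD barcodes. Alternatives changed 1 choice each. Gene positions and promoter windows were from GENCODE and RefSeq. Python v3.11.15, scipy v1.17.1 and pandas v2.3.3 were used.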

Additional observations from a re-analysis of the deposited data

Results flagged for a closer look

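HFD β cells with more than 20000 and up to 40000 UMIs, outside the depth range of the comparison, held Aldh1a3 in 30.7% of cells (333 of 1086, exact Clopper-Pearson interval 27.9 to 33.5%), above the 1.06% of WT cells at that depth (9 of 848, 0.486 to 2.01%). Their level was 19.9 CPM in HFD and 0.491 CPM in WT. Thinned to 8000 UMIs the shares were 14.1% and 0.59%.

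Egr1 differed in direction between the libraries. Among WT β cells of 8000 UMIs or more with no maximum, the 28 cells with Aldh1a3 had 355 CPM and the 1704 without had 322 CPM, a ratio of 1.11 (1.01 to 1.21), against 0.509 in HFD. The difference between the libraries was not tested, and the WT cells with Aldh1a3 were deeper, with a median of 45099.5 UMIs.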

How the results depend on the processing

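No paired analysis was possible because each group held 1 library and no result came from a test. The share of β cells with Aldh1a3 depended on depth: 30.7% at 20000 to 40000 UMIs, 3.74% at 4000 to 8000 UMIs and 8.84% with each cell thinned to 8000 UMIs. With at least 2 Aldh1a3 UMIs required (146 cells), the insulin share differed from that of cells without Aldh1a3 by -1.61 percentage points, the Ins1 part of insulin by -0.999 points and the mitochondrial share by 0.0331 points, in place of -0.0382. At that setting 398 genes were higher and 792 lower of 5485, against 104 and 333 of 5476 with all 486 cells. The part that the smaller number of cells and UMIs had in this rise was not tested. Cck cells were 2.12 points and Gast cells 3.22 points more frequent with Aldh1a3 at that setting. At 20000 to 40000 UMIs the differences were -0.111 points (Ins1 part), -5.40 genes per cell, -0.0228 points (mitochondrial share) and 2.17 points (Cck), with 56 genes higher and 125 lower of 5097. At 4000 to 8000 UMIs only 39 cells held Aldh1a3. There the differences were -0.151 points (insulin), -1.35 points (Ins1 part), -0.366 points (mitochondrial share), 2.45 points (Cck), -0.985 points (Gast) and -7.84 points (Ddit3 or Trib3), with 1286 genes higher and 2098 lower of 6001, Trim9 at 0.654, B2m at 0.92, Rasd1 at 1.03 and the cycling list at a median log2 ratio of -0.27, in place of 1.39. A floor of 50 CPM left 11 higher and 40 lower of 1189 genes, and no floor but 10 UMIs gave 1448 and 2601 of 13025. These last counts follow the number of genes compared and their UMIs. For the other changes the cause was not tested. The differences in insulin share, genes per cell and counts of genes kept their direction and size within 1.5 times without the highest Scrublet scores, with at most 10% mitochondrial UMIs and with insulin from 20%. Of 285 ratios of named genes under the alternatives, 237 stayed within the counting interval of the main value, 45 left it and 3 changed direction. Most alternatives kept all or most of the same cells, so little change was possible there. In the separate cells of 20000 to 40000 UMIs, Spp1 alone of the 12 higher genes stayed within its interval. Leaving out the cell with most UMIs of each gene, or cells with at least 2 cycling genes, was chosen after seeing the data.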

Other observations

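The WT β cells with Aldh1a3 can be set beside the HFD ones only without the maximum of 20000 UMIs, as 28 cells with 39 Aldh1a3 UMIs. Of the 12 genes that were higher in HFD cells with Aldh1a3, 9 had WT ratios above 1. Of the 12 lower genes 10 had WT ratios below 1. The share of all genes above or below 1 in these WT cells was not counted, so these counts have no background to be read against. The interval left out 1 in that direction for 5 and 4 of them. Gpx3 had the highest WT ratio at 4.79 (3.83 to 5.98), with 66.3 CPM in the 28 cells and 14.1 CPM in the others. Its 85 UMIs in the 28 cells are not given by cell, and the interval does not hold their spread over cells. Next were Cd81 at 2.99 (2.31 to 3.86), Cd44 at 2.76 (2.05 to 3.71) and Rasgrf2 at 2.34 (1.26 to 4.33). Dapl1 was at 1.32 (1.12 to 1.54). Gc at 1.18 (0.844 to 1.64) and Serpina7 at 0.879 (0.281 to 2.75) had intervals that held 1. On the lower side Cebpd was at 0.593 (0.424 to 0.829), Upp1 at 0.511, Adam32 at 0.511 and Cox6a2 at 0.836.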
